A study of Mus musculus with 12 samples.

Results

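The proteasome genes of the mouse liver were followed through an overdose of acetaminophen (APAP), a painkiller that injures hepatocytes. They were taken as the protein-coding entries of the deposited table whose symbol is Psma, Psmb, Psmc, Psmd, Psme, Psmf or Psmg followed by a number, which gave 48 of 45777 genes. Livers came from C57BL/6 mice aged 10 to 12 weeks by the sample labels, all male by the study's methods, and 4 groups of 3 mice were compared. WT mice and mice labelled Gα12-/- (called the KO label here, meaning deletion of *Gna12*, the gene of the G protein alpha subunit Gα12) were given vehicle or a single injection of 300 mg/kg APAP, and the livers were taken 6 h later. The study's methods describe an overnight fast before the dose and WT littermates of matched age, and they refer to earlier work for the generation of the knockout line. Each library was made from the poly-A RNA of 1 liver.

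The proteasome is the protease that degrades proteins tagged with ubiquitin. Its 20S core is a barrel of alpha and beta rings with the catalytic sites inside, and the 19S regulatory particle caps the barrel, binds ubiquitin chains, removes them and unfolds the substrate with a ring of ATPases. Under interferon, and constitutively in leukocytes, the catalytic beta subunits are replaced by immunosubunits, which changes the peptides made for presentation to T cells. Cells are known to raise proteasome genes together when proteasome capacity falls short, and hepatocytes carry mainly the constitutive core.

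By role, the 48 genes comprised 8 alpha subunits, 4 noncatalytic and 3 catalytic beta subunits of the constitutive 20S core, 3 immunosubunits, the thymus subunit *Psmb11*, 6 ATPases and 11 other subunits of the 19S particle, 5 activators or inhibitors and 7 assembly chaperones. *Psmb11*, which belongs to the thymic epithelium, had 0 counts in all 12 livers and was not tested. The floor of 3 counts is the upper limit that a count of 0 allows in each library. *Psma8*, the alpha subunit of the testis, was nearly silent with 15 to 88 counts per liver and 0.283 to 1.35 TPM (a relative transcript abundance scaled by transcript length). All genes other than *Psmb11*, 47 of 48, passed the filter on low counts in every comparison.

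Libraries held 49737950 to 69566079 gene counts. Hepatocyte markers had a summed level of 56690.9 to 91041.1 TPM across the 12 livers, as the tissue label says. *Gna12* itself was not lower under the KO label, with 2472 to 4003 counts in the KO-label vehicle livers against 1659 to 3550 in the WT vehicle livers, so the groups are named by label only. For its WT and knockout mice, the study reports PCR of tail DNA and qRT-PCR of liver for *Gna12*. Its figures also include immunoblots for Gα12. Livers stood apart in the proteasome genes in both directions. In WT APAP liver 1 and in KO-label vehicle liver 3, all 14 constitutive 20S genes other than *Psma8* lay above the mean of the other 2 livers of their group, with a median distance of 0.65 and 0.52 on the log2(CPM + 0.5) scale (CPM, counts scaled to a common library size after TMM). In WT APAP liver 2 and in KO-label vehicle liver 1 all 14 lay below, with medians of -0.49 and -0.31. Distances within a group of 3 are not independent of each other. WT APAP liver 1 also had 28805.8 TPM of erythroid marker mRNA against 657.2 to 1560.2 in the other livers, and 231.7 TPM of neutrophil marker mRNA, above every other liver. Across 11156 genes, the distance of a liver from its group had a Spearman rho with transcript length of -0.425 and -0.371 in the livers that lay above and of 0.406 and 0.377 in those that lay below (across genes, which are not independent), and the 20S transcripts are short, with a median of 1162 bases against 1819 for the 19S genes. Over 46 proteasome genes rho was -0.566 and -0.205 in the livers that lay above, and 0.385 and 0.074 in those that lay below. Of the 17 genes of the 19S particle, 7 lay below their group in WT APAP liver 1 (median 0.085). In KO-label vehicle liver 3 it was 0 of 17 (median 0.162). In WT APAP liver 2 and KO-label vehicle liver 1 it was 13 and 17 (medians -0.115 and -0.17). The part of these features in the 20S values was not tested, and results that rest on these livers are given without them as well.

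Levels per length placed the 20S core first. Over the 12 livers the catalytic subunits averaged 128.2 TPM for *Psmb5* (chymotrypsin-like site), 134.4 for *Psmb6* (caspase-like site) and 171.7 for *Psmb7* (trypsin-like site), and the highest member was the noncatalytic beta subunit *Psmb4* with 188.7 TPM. Among the 14 expressed 20S genes the lowest mean was 74.3 TPM for *Psma5*, so the core subunits stood within 2.54-fold of each other. The 19S ATPases spanned 71.3 TPM for *Psmc6* to 110.9 TPM for *Psmc1*. The other 19S subunits spanned 40.7 TPM for *Psmd14*, the deubiquitinase of the particle, to 121.8 TPM for *Psmd4*, a ubiquitin receptor.

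The immunosubunits were a minor fraction in liver. Their means were 23.7 TPM for *Psmb8*, 17.7 for *Psmb10* and 12.0 for *Psmb9*, each below every expressed constitutive core gene. Of the activators, the interferon-inducible pair *Psme1* and *Psme2* had means of 82.9 and 69.1 TPM, and the nuclear activator *Psme3* had 31.9 TPM. *Psmf1*, which encodes an inhibitor of the core, had 9.51 TPM. The assembly chaperones lay between 6.91 TPM for *Psmd10* and 28.7 TPM for *Psmd9*. Neighbours in these orders overlapped in their ranges over livers, for example *Psmb8* with 12.6 to 46.4 TPM and *Psmb10* with 10.3 to 28.6 TPM.

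**Figure D1:**
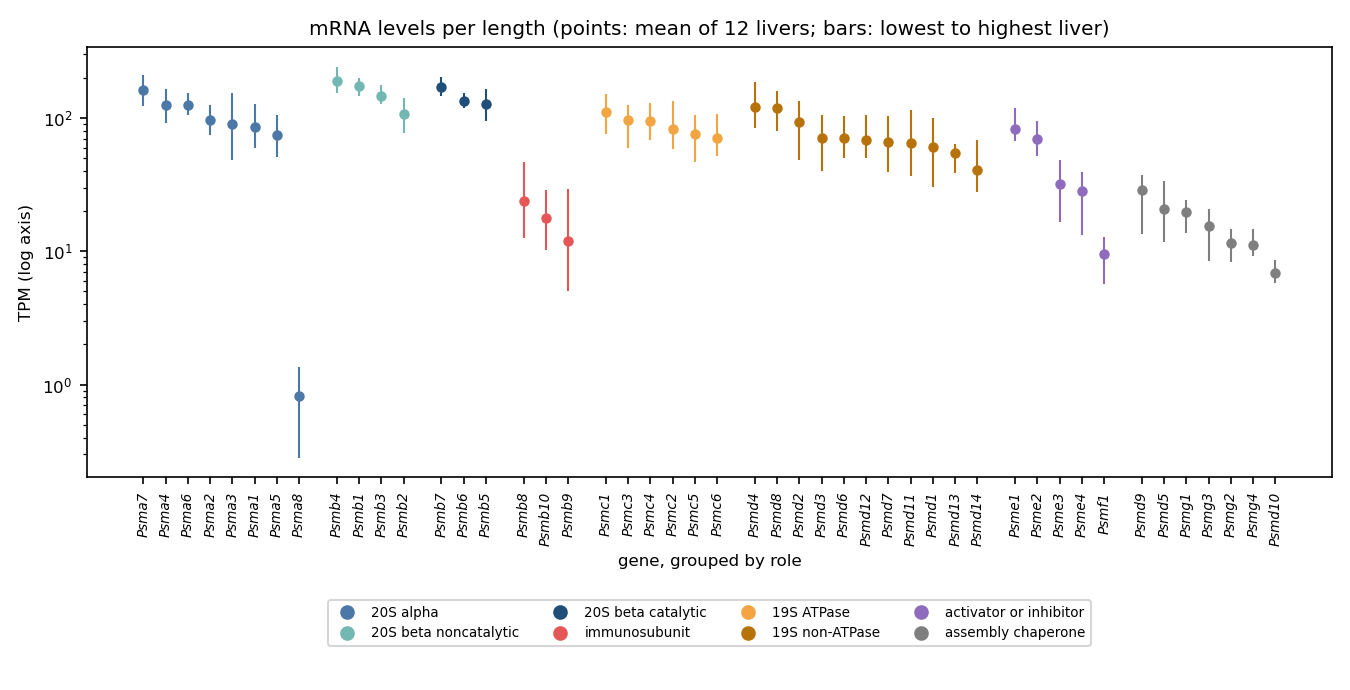
TPM (log axis) of the 47 proteasome genes with reads, grouped by role on the horizontal axis, where points are means of 12 livers and bars run from the lowest to the highest liver. Without *Psma8*, the means of the constitutive core and 19S genes lie between 40.7 and 188.7 TPM, the immunosubunits between 12.0 and 23.7 TPM, and *Psma8* at 0.816 TPM.

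Promoter windows of 300 bases (250 before and 50 after the start, RefSeq, GRCm38.p6) were at hand for 40 of the 48 genes, in 43 windows. No window was used for *Psma8*, *Psmb1*, *Psmb2*, *Psmb7*, *Psmc3*, *Psmd3*, *Psmd7* and *Psmg2*. Windows are printed for the genes that differed most between APAP and vehicle in each direction and for a catalytic subunit that was not called in the count fit, a choice made after their values were seen. *Psmd11* (chr11:80428365-80428664, plus strand) and *Psmd4* (chr3:95042565-95042864, minus strand) are 19S genes. *Psmb9* (chr17:34187281-34187580, minus strand) is an immunosubunit gene in the class II region of the MHC, and *Psmb5* (chr14:54617946-54618245, minus strand) is a catalytic 20S gene. Capitals mark matches on either strand to TGACNNNGC (core of the antioxidant response element), to CCAAT, or to AAANNGAAA (part of the interferon-stimulated response element). No 2 matches in these 4 windows overlap.
Psmd11: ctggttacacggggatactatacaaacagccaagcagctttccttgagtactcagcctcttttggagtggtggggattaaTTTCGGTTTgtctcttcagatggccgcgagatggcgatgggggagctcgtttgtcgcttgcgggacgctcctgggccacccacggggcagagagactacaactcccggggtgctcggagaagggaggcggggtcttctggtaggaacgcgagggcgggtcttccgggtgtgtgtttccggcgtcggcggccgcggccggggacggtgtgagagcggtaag
Psmd4: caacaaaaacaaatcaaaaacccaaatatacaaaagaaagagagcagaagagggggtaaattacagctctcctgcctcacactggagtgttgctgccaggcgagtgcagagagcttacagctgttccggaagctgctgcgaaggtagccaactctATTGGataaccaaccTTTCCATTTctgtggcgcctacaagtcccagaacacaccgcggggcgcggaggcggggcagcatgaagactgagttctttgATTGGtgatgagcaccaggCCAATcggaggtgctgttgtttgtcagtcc
Psmb9: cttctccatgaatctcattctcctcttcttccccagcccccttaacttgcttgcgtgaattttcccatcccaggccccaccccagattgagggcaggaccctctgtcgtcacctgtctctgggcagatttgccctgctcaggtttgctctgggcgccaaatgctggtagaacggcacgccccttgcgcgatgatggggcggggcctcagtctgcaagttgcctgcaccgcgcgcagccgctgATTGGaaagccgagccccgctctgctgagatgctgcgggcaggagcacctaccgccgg
Psmb5: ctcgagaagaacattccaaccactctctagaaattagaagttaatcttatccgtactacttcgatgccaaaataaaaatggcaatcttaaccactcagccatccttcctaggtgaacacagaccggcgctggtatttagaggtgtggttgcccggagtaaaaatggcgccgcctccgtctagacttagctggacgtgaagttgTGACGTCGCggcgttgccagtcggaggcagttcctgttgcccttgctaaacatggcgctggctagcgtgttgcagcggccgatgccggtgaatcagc

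The motifs were about as common in the proteasome windows as elsewhere. TGACNNNGC was found in 6 of 43 windows (14.0%), against 12.4% of 32851 windows of the same length. CCAAT was found in 14 of 43 (32.6%), against 37.4%. AAANNGAAA was found in 6 of 43 (14.0%), against 10.6%. *Psmb5* held TGACNNNGC at bases -47 to -39 from the start, *Psmb9* held CCAAT as its reverse complement at bases -8 to -4, and *Psmd4* held 3 CCAAT matches beside 1 match to AAANNGAAA. These matches are descriptions of letters.

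After APAP, mRNAs of the 19S cap rose, those of the immunosubunits fell, and none of the constitutive core passed the count test. In the fit of all 12 livers with the genotype label as a term (edgeR quasi-likelihood test, adjusted over all 16509 genes tested, called at an adjusted p under 0.05), 11 of 17 genes of the 19S particle were called higher, with a median log2 fold change of 0.40, where 14.0% of all genes tested were called higher and the median of all genes was 0.01. The 3 immunosubunits were all called lower, where 11.4% of all genes tested were called lower. None of the 15 constitutive 20S genes was called. At an unadjusted p under 0.05 there were 4 of the 15, against 6132 of the 16509 genes. DESeq2's Wald test called 2 of the 15, and 4973 genes over all in either direction. Using quantile-normalized log2(TPM + 1), limma called 6 of the 15 higher beside 13 of the 17 genes of the 19S particle. It called 4441 genes over all in either direction. In the count fit all 15 core genes had a fitted log2 fold change above 0, with a median of 0.20. Taking the proteasome genes as a whole, 14 of the 47 tested were called (29.8%), close to the 25.4% of all genes tested. The 6 APAP and 6 vehicle livers of this fit are the same livers that enter the comparisons within each label.

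**Figure D2:**
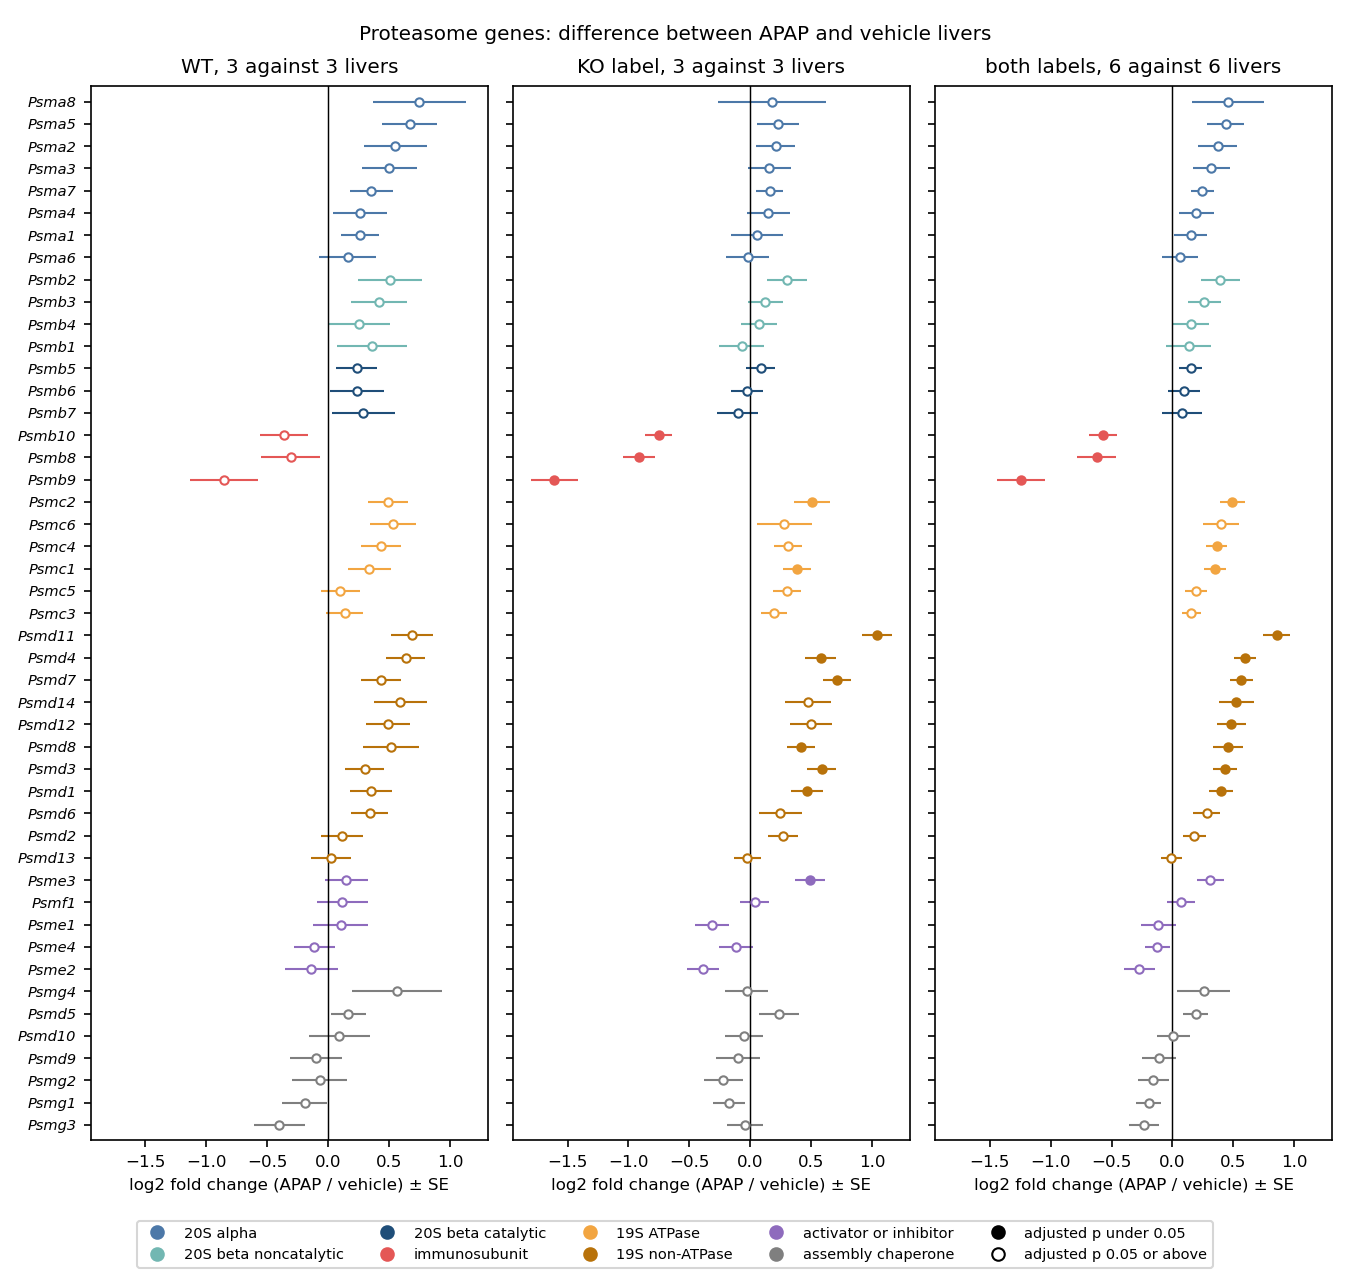
Log2 fold change between APAP and vehicle livers (horizontal axis, bars ± SE) of the 47 tested proteasome genes, coloured by role, within WT, within the KO label and over both labels, where filled points passed an adjusted p of 0.05. In the right panel the filled points are 11 genes of the 19S particle above 0 and 3 immunosubunits below 0.

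Whether livers separate by treatment depends on the scale. In CPM, 6 of the 17 genes of the 19S particle and 0 of the 15 core genes had every APAP liver above every vehicle liver, against 7.10% of the 16509 genes. In TPM these were 1 of 17 (*Psmd8*) and 3 of 15 (*Psma2*, *Psmb2* and *Psmb3*), against 4.83%. Without WT APAP liver 1 they were 9 of 17 and 0 of 15 in CPM, against 1650 of the 16509 genes. In TPM without that liver they were 13 of 17 and 5 of 15, against 2359 of the 16509 genes. In WT APAP liver 1 the uncalled *Psmd13* also had its lowest TPM (38.9) and its highest CPM (61.0) of all livers. Apart from *Psma3*, the 2 scales differ between livers mainly by a factor that the proteasome genes share. The values that follow are in CPM unless TPM is named.

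Of the 19S subunits outside the ATPase ring, 8 of 11 were called higher. *Psmd11*, a scaffold subunit that joins the cap to the core, differed most. Its level in vehicle livers was 61.2 CPM at the lowest, 67.6 at the median and 76.3 at the highest, and in APAP livers 95.9, 129.3 and 147.7. In CPM every APAP liver was above every vehicle liver. In TPM, WT APAP liver 1 (36.8) was below all vehicle livers (38.7 to 48.4) and the other APAP livers were above them. The fitted difference was 1.81-fold (log2 0.85, SE 0.11, adjusted p = 1.73e-04).

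*Psmd4*, which binds ubiquitin chains, ran from 72.5 CPM (median 77.5) to 86.5 in vehicle livers and from 107.9 (median 113.9) to 130.4 in APAP livers. The ranges did not overlap in CPM, but in TPM WT APAP liver 1 (97.1) lay under the highest vehicle liver (108.6). The fitted difference was 1.51-fold (log2 0.60, SE 0.09, adjusted p = 4.96e-04). *Psmd7*, the partner of the deubiquitinase *Psmd14*, ran from 46.3 CPM (median 50.2) to 56.0 with vehicle and from 62.7 (median 76.8) to 84.8 with APAP, without overlap in CPM. In TPM, WT APAP liver 1 (39.0) was below all vehicle livers (44.3 to 60.4). It differed 1.48-fold (log2 0.57, SE 0.10, adjusted p = 0.00115).

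The other 5 that were called were *Psmd14*, *Psmd12*, *Psmd8*, *Psmd3* and *Psmd1*, with log2 fold changes of 0.52, 0.48, 0.46, 0.43 and 0.40. *Psmd6* (0.28, adjusted p = 0.0808) and *Psmd2* (0.18, adjusted p = 0.193), the latter a docking site for ubiquitin-binding shuttles, were not called. *Psmd13* had a fitted value on the other side of 0 from the rest, -0.01, with 47.8 to 56.1 CPM in vehicle livers and 48.1 to 61.0 CPM in APAP livers. The 2 groups overlapped throughout.

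In the ATPase ring, which threads the substrate into the core, 3 of 6 were called higher. *Psmc2* ran from 53.1 CPM (median 59.0) to 72.9 in vehicle livers and from 78.4 (median 85.0) to 100.3 in APAP livers, without overlap, a difference of 1.40-fold (log2 0.49, SE 0.10, adjusted p = 0.00418). In TPM, WT APAP liver 1 was again below all vehicle livers, at 58.1 against 59.4 to 73.6 for *Psmc2* and at 68.8 against 73.0 to 96.7 for *Psmc4*. *Psmc4* was 72.1 ± 6.72 CPM (SD, n = 6) with vehicle and 92.5 ± 6.46 with APAP, and its highest vehicle liver (82.1) lay just below its lowest APAP liver (82.3). It differed 1.29-fold (log2 0.36, SE 0.09, adjusted p = 0.00991). For *Psmc1* the groups touched, with vehicle livers up to 97.2 CPM and the lowest APAP liver at 93.6 CPM, and the log2 fold change was 0.35 (SE 0.09, adjusted p = 0.0161). *Psmc6*, *Psmc5* and *Psmc3* had log2 fold changes of 0.40, 0.19 and 0.16 and were not called.

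**Figure D3:**
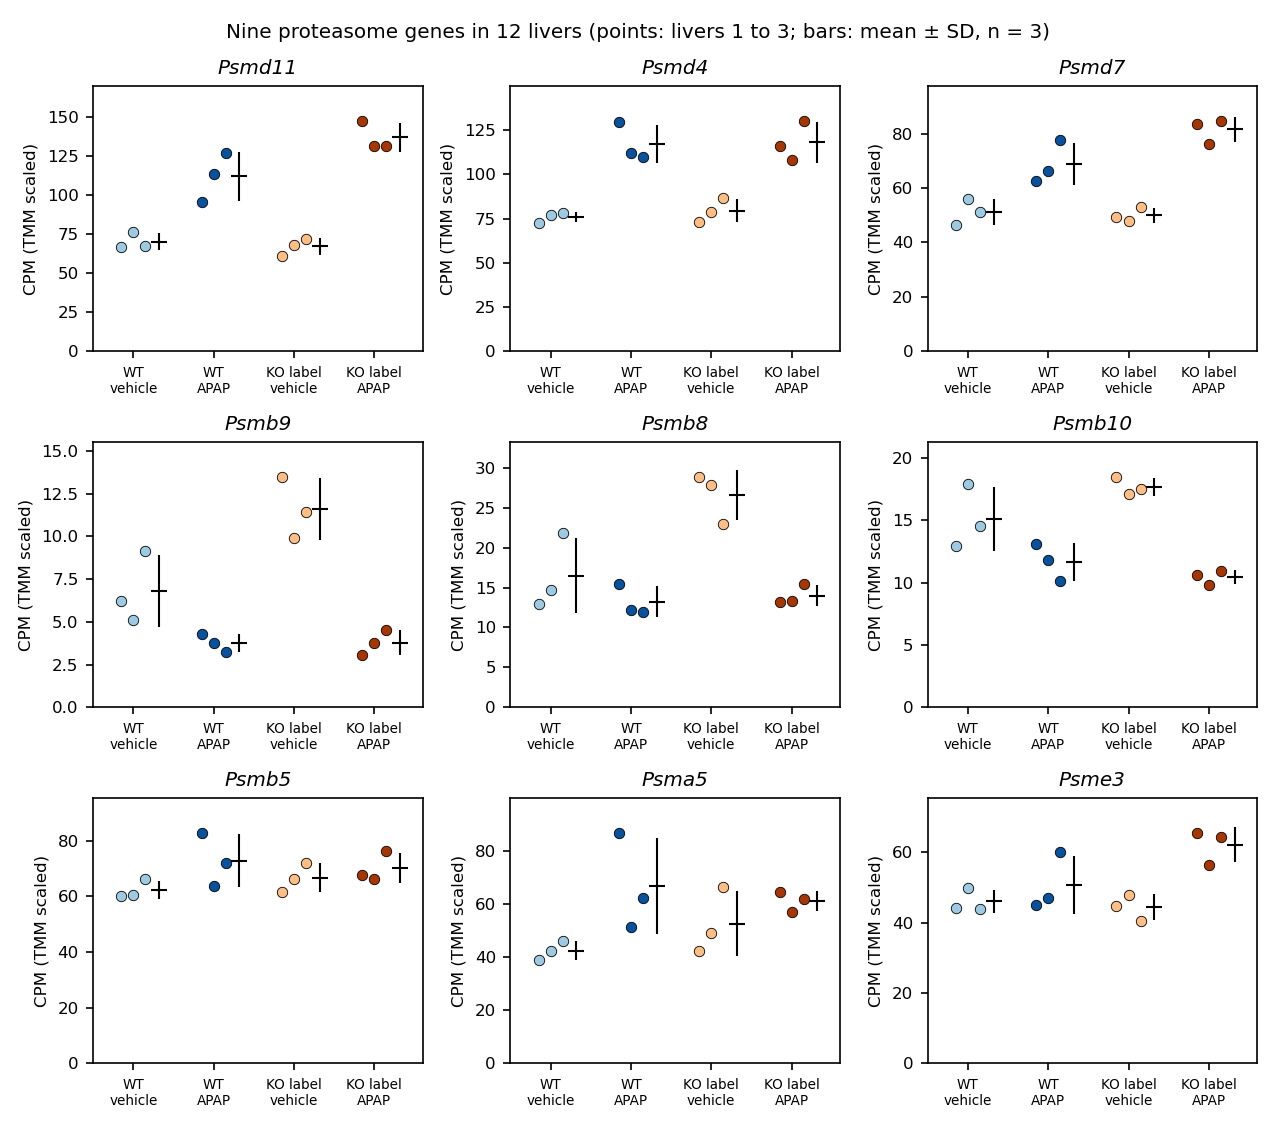
CPM after TMM scaling (vertical axis, from 0) of 9 proteasome genes in the 12 livers, by group, where points are livers 1 to 3 in order and bars are the mean ± SD (n = 3). On this scale, but not in TPM, *Psmd11*, *Psmd4* and *Psmd7* are higher in all APAP livers than in all vehicle livers and *Psmb9* is lower in all of them, and *Psma5* is led by WT APAP liver 1 at 86.8 CPM.

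Over the 6 vehicle and 6 APAP livers, the ranges of each of the 15 constitutive 20S genes overlapped in CPM. In TPM, *Psma2* (75.0 to 93.6 with vehicle, 97.1 to 125.1 with APAP), *Psmb2* (77.4 to 100.1 and 105.4 to 142.3) and *Psmb3* (126.3 to 139.2 and 141.3 to 178.0) did not overlap, and limma called all 3 (adjusted p of 0.0204, 0.0159 and 0.0112). It also called *Psma5* (0.0151), *Psma7* (0.0147) and the catalytic *Psmb5* (0.0428) higher. In the count fit *Psmb5* was not called, with 64.5 ± 4.59 CPM (SD, n = 6) with vehicle and 71.5 ± 7.12 with APAP (log2 fold change 0.15, SE 0.09, adjusted p = 0.268). For *Psmb6* and *Psmb7* the log2 fold changes were 0.10 (SE 0.13) and 0.08 (SE 0.16), and both turned negative, to -0.01 and -0.08, without WT APAP liver 1. The alpha subunit *Psma5* came nearest to the threshold, with 38.9 to 66.3 CPM in vehicle livers and 51.4 to 86.8 CPM in APAP livers (log2 0.44, SE 0.15, adjusted p = 0.0525). *Psma2* (log2 0.37, adjusted p = 0.11) and *Psma7* (0.25, adjusted p = 0.0776) followed, and of the noncatalytic beta subunits *Psmb2* had 0.39, *Psmb3* 0.26 and *Psmb4* 0.15, none of them called in the count fit. Without WT APAP liver 1, 4 of the 15 core genes had values below 0 and the median was 0.14. Without KO-label vehicle liver 3, 4 core genes were called higher, without WT APAP liver 2 the count was 2, and without KO-label vehicle liver 1 it was 0. Over all genes these fits called 3655, 4538 and 3529 in either direction. Without both livers that lay above, 3 of the 15 core genes were called higher with a median of 0.21, and 13 of the 17 genes of the 19S particle with a median of 0.48 (a setting added after seeing the data). That fit called 4080 genes over all in either direction. Whether the 19S and the 20S differ in their response was not tested.

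The ratio of the median 19S to the median 20S level does not depend on how libraries are scaled. In TPM it was 0.517, 0.497 and 0.525 in the WT vehicle livers and 0.493, 0.513 and 0.526 in the KO-label vehicle livers. After APAP it was 0.474, 0.664 and 0.621 in WT and 0.701, 0.634 and 0.657 under the KO label. All APAP livers except WT APAP liver 1 were above all vehicle livers. These ratios describe genes chosen with earlier results known and carry no test.

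The immunosubunits moved the other way. *Psmb9*, which replaces *Psmb6*, was 6.21, 5.09 and 9.16 CPM in WT vehicle livers and 4.27, 3.75 and 3.26 in WT APAP livers. Under the KO label it was 13.5, 9.93 and 11.4 CPM with vehicle and 3.09, 3.74 and 4.52 with APAP. In CPM every APAP liver was below every vehicle liver of both labels. In TPM this held within each label, but KO-label APAP liver 3 (10.2) was above WT vehicle liver 2 (8.02). Over all livers it was 2.36-fold lower after APAP (log2 -1.24, SE 0.20, adjusted p = 7.13e-04), from 177 to 804 counts per liver.

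*Psmb8*, which replaces *Psmb5*, was 12.9, 14.7 and 21.8 CPM in WT vehicle livers, 15.5, 12.2 and 12.0 in WT APAP livers, 28.9, 27.8 and 23.0 in KO-label vehicle livers and 13.2, 13.3 and 15.5 in KO-label APAP livers. The WT groups overlapped and the KO-label groups did not. Over all livers it was 1.54-fold lower (log2 -0.62, SE 0.16, adjusted p = 0.0125). *Psmb10*, which replaces *Psmb7*, was 16.4 ± 2.22 CPM (SD, n = 6) with vehicle and 11.1 ± 1.22 with APAP, 1.48-fold lower (log2 -0.57, SE 0.12, adjusted p = 0.0036), with a small overlap in WT (12.9 CPM in the lowest vehicle liver, 13.1 in the highest APAP liver). The 3 genes were called lower with any 1 of the 4 livers that stood apart left out and without both that lay above (median log2 fold change of -0.73 in the latter).

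As a share of the summed TPM of the 6 catalytic beta genes, the immunosubunits made up 11.7% ± 1.39 (SD, n = 3) in WT vehicle livers and 7.76% ± 1.19 in WT APAP livers. The share was 15.6% ± 2.93 in KO-label vehicle livers and 8.42% ± 0.474 in KO-label APAP livers. The vehicle livers ran from 10.8% to 18.3% and the APAP livers from 6.85% to 9.11%, so the treatments did not overlap. Within pairs, *Psmb9* was 8.94% of *Psmb6* and *Psmb9* together in WT vehicle livers and 4.47% in WT APAP livers, and 13.8% and 5.21% under the KO label. The shares are descriptions without a test.

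**Figure D4:**
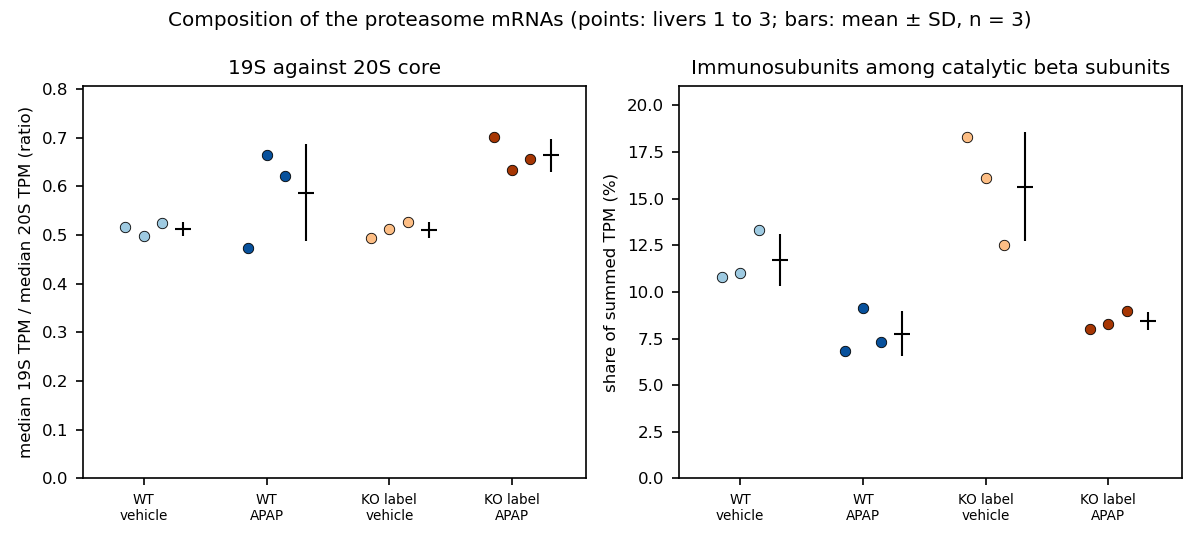
Left, ratio of the median TPM of 17 genes of the 19S particle to that of 14 genes of the 20S core, and right, immunosubunits as a percentage of the summed TPM of the catalytic beta genes, per liver and group (bars: mean ± SD, n = 3). The ratio is 0.474 in WT APAP liver 1 and 0.621 to 0.701 in the other APAP livers, and the share is 6.85% to 9.11% after APAP against 10.8% to 18.3% with vehicle.

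Leukocytes carry these immunosubunits, and in whole liver fewer leukocytes cannot be told apart from less mRNA per cell. The 5 leukocyte markers (*Ptprc*, *Coro1a*, *Laptm5*, *Cd52*, *Cd53*) summed to 12.7 to 14.4 TPM in WT vehicle livers, 14.2 to 28.0 in WT APAP livers, 16.0 to 34.3 in KO-label vehicle livers and 16.9 to 20.2 in KO-label APAP livers. None of the 5 was called between APAP and vehicle in the 3 fits (WT, KO label and all livers), their median log2 fold change was 0.75 in WT and -0.49 under the KO label, and none was at 0 in any liver. The T and NK cell markers summed to 0.412 to 1.26, 0.777 to 1.58, 0.997 to 3.55 and 0.696 to 1.36 TPM in the same order of groups. Under the KO label *Cd8a* was called lower after APAP (log2 -2.11, adjusted p = 0.0473), and *Cd8a*, *Klrb1c* and *Nkg7* were at 0 in at least 1 liver. The Kupffer cell markers summed to 53.2 to 98.3, 49.1 to 136.7, 72.8 to 161.6 and 68.2 to 105.8 TPM. Under the KO label all 5 genes of each of these 3 marker lists had fitted log2 fold changes below 0, as the immunosubunits did. Other blood cell markers did not all share this sign there. All 3 neutrophil markers tested had values above 0 (median 2.15), from a sum of 0.569 to 2.32 TPM with vehicle and 1.06 to 17.1 TPM with APAP. Of the 3 B cell markers tested, 1 was above 0 and 2 below. In WT all 5 leukocyte and all 5 Kupffer cell markers had values above 0, while the immunosubunits had values below 0. Their part in the result was not tested.

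Among the activators and the inhibitor, 0 of 5 were called over all livers in the count fit (2 at an unadjusted p under 0.05, 1 by DESeq2's Wald test). Of all 16509 genes, 6132 had an unadjusted p under 0.05 in that fit. *Psme3* had 40.5 to 49.8 CPM with vehicle and 45.0 to 65.6 CPM with APAP (log2 0.31, SE 0.11, adjusted p = 0.0504). The interferon-inducible *Psme2* lay on the side of the immunosubunits, with 41.7 ± 4.68 CPM (SD, n = 6) against 34.5 ± 6.24 (log2 -0.27, adjusted p = 0.131). On quantile-normalized log2(TPM + 1), limma called *Psme2* lower (log2 -0.27, adjusted p = 0.0272), where it called 4441 genes over all in either direction. In TPM every APAP liver was below every vehicle liver for *Psme2* within each label. Over both labels the lowest vehicle liver (68.0) was below the highest APAP liver (70.0). Without WT APAP liver 1, 1 gene was called in each direction, where 4811 genes were called over all. *Psme4*, an activator linked to histone degradation, had a log2 fold change of -0.13 and *Psmf1* one of 0.07.

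The assembly chaperones gave no call in the count fit, 0 of 7 (0 also at an unadjusted p under 0.05). On quantile-normalized log2(TPM + 1), limma called *Psmg1* lower (log2 -0.25, adjusted p = 0.0307), where it called 4441 genes over all in either direction. Those for the alpha ring had log2 fold changes of -0.19 for *Psmg1*, -0.23 for *Psmg3* and 0.26 for *Psmg4*. The last was led by WT APAP liver 1, with 7.88 CPM against 2.89 to 3.79 in the other 11 livers. *Psmd5* and *Psmd10*, chaperones of the 19S base, had 0.19 and 0.01.

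Larger folds were seen among genes that work with the proteasome. Of 25 such genes, 13 were called higher over all livers and none lower, against 14.0% and 11.4% of all genes tested, and their median was 0.37 on the log2 scale. *Zfand2a*, a stress-induced proteasome-associated zinc finger protein, ran from 8.91 CPM (median 10.7) to 11.5 in vehicle livers and from 32.4 (median 128.2) to 173.2 in APAP livers, 11.4-fold higher (log2 3.51, SE 0.31, adjusted p = 1.1e-05). *Zfand5*, a ubiquitin-binding protein of the same domain family, was 30.5 ± 3.4 CPM (SD, n = 6) with vehicle and 218.4 ± 47.5 with APAP, 7.15-fold higher. Neither gene overlapped between treatments, in CPM or in TPM. The lowest APAP liver for *Zfand2a* was WT APAP liver 1.

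*Ubb*, a polyubiquitin gene, was 597.6 ± 27.3 CPM (SD, n = 6) and 1133.4 ± 145.9, 1.90-fold higher. *Adrm1*, a ubiquitin receptor of the 19S particle whose symbol falls outside the rule, rose from 60.0 ± 7.44 to 105.7 ± 13.8 CPM (log2 0.81, SE 0.11, adjusted p = 3.41e-04). The genes called also included the segregase genes *Vcp*, *Ufd1* and *Nploc4* (log2 0.45, 0.39 and 0.42), the deubiquitinase gene *Usp14* (0.42) and the oxidative stress factor *Nfe2l2* (0.55). *Nfe2l1*, a transcription factor of proteasome genes, had -0.37 (adjusted p = 0.109), and the 20S maturation factor *Pomp* -0.07 (adjusted p = 0.79). The last 7 genes were named after their values were seen.

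Of 16 antigen presentation and interferon genes, 3 were called lower and 1 higher over all livers, 25% in all and so near the 25.4% of all genes tested. *Erap1*, which trims peptides in the endoplasmic reticulum, ran from 67.8 to 81.4 CPM with vehicle and from 37.3 to 50.2 with APAP, 1.70-fold lower (log2 -0.77, SE 0.10, adjusted p = 2.01e-04). *Tapbp*, which loads peptides on class I molecules, fell from 56.7 ± 3.69 to 40.3 ± 1.73 CPM (SD, n = 6; log2 -0.49, adjusted p = 6.75e-04), and the peptide transporter subunit gene *Tap2* by 0.34 on the log2 scale (adjusted p = 0.0201). *Tap1*, its partner and the neighbour of *Psmb9*, was not called (log2 -0.32, SE 0.15, adjusted p = 0.144). The chemokine gene *Cxcl10*, induced by interferon, rose, with a range of 0.539 to 2.38 CPM with vehicle and of 3.72 to 32.5 CPM with APAP (log2 3.61, SE 0.59, adjusted p = 8.35e-04). The interferon pathway genes *Irf1* and *Nlrc5*, named after their values were seen, had log2 fold changes of -0.09 and 0.17, and the median of the 16 genes was 0.01.

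**Figure D5:**
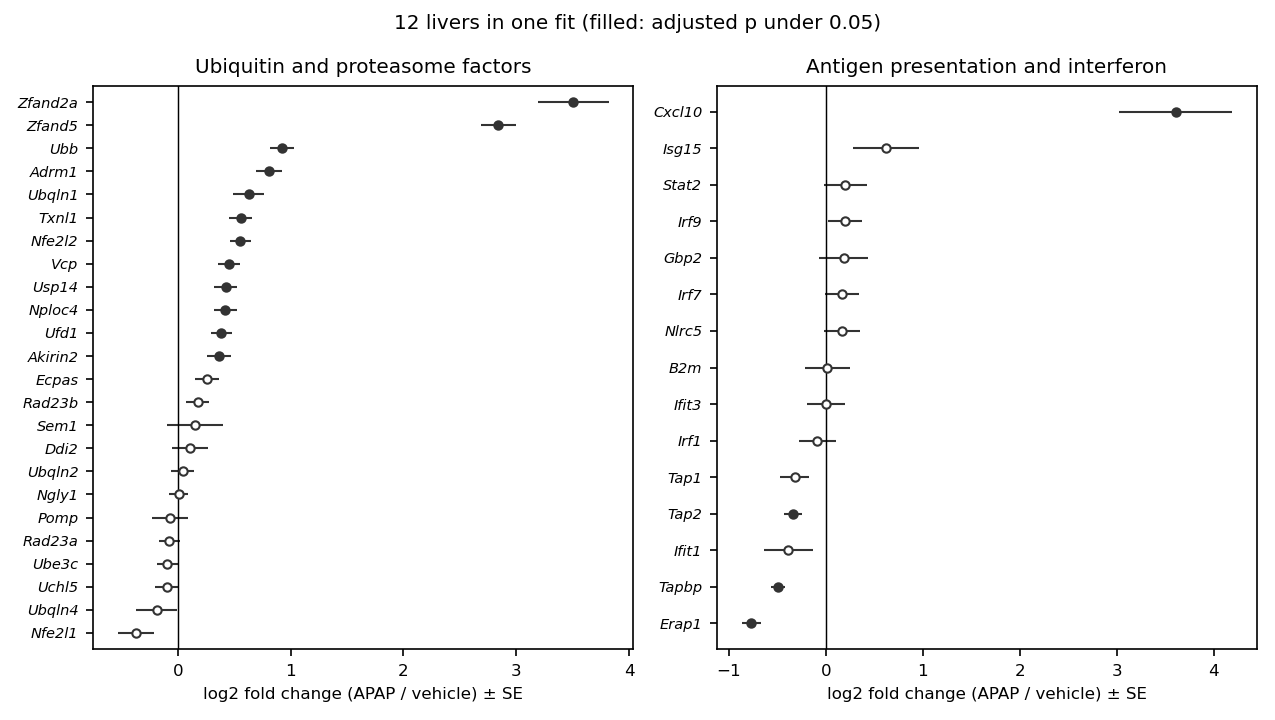
Log2 fold change between APAP and vehicle over 12 livers (horizontal axis, bars ± SE) of 24 of the 25 ubiquitin and proteasome factors (left) and 15 of the 16 genes of antigen presentation and interferon (right), where filled points passed an adjusted p of 0.05. On the left, 12 filled points lie above 0, led by *Zfand2a* at 3.51, and on the right *Erap1*, *Tapbp* and *Tap2* lie below 0 and *Cxcl10* at 3.61.

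Within WT alone, 3 livers against 3, no proteasome gene passed the test. Of the 47 tested, 10 had an unadjusted p under 0.05, against 2817 of all 15693 genes. DESeq2's Wald test called 2 of the 47, and 1413 genes over all. In this comparison 1.62% of 15693 genes were called higher and 0.427% lower. All 17 genes of the 19S particle had fitted values above 0 (median log2 fold change 0.43), led by *Psmd11* with 0.69 (adjusted p = 0.0942) and *Psmd4* with 0.64 (adjusted p = 0.0913). *Psmd4* was 75.8 ± 3.02 CPM (SD, n = 3) with vehicle and 117.0 ± 10.7 with APAP, and its ranges did not overlap. The 15 core genes had a median of 0.35, which became 0.17 with 5 of them below 0 without WT APAP liver 1. For *Psma1*, *Psma3*, *Psma5* and *Psma7* every WT APAP liver was above every WT vehicle liver in CPM, and the other core genes overlapped. The share of all genes that separate in this way was not counted for 3 against 3 livers, so this is a description only. *Psmb9* had -0.85 (adjusted p = 0.165), and *Zfand5* and *Zfand2a* were among the 3 genes called in the companion list.

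Under the KO label, 12 proteasome genes were called, 9 higher and 3 lower, where 13.0% of 15665 genes were called higher and 9.60% lower. The 19S particle gave 8 of 17 with a median log2 fold change of 0.41, and the ninth gene was *Psme3* (44.4 ± 3.74 CPM against 62.1 ± 5.01, SD, n = 3; log2 0.49, adjusted p = 0.0238). *Psmd11* rose from 67.1 ± 5.55 to 136.9 ± 9.32 CPM, 2.05-fold (adjusted p = 0.00154), and *Psmd7* was 1.64-fold higher (adjusted p = 0.00478). *Psmc2* and *Psmc1* were called as well, with log2 fold changes of 0.51 and 0.38. None of the 15 core genes was called (0 at an unadjusted p under 0.05 and 0 by DESeq2's Wald test), with a median of 0.12. Of all 15665 genes, 5804 had an unadjusted p under 0.05. Without KO-label vehicle liver 3, whose core genes lay above its group, *Psmb6* and *Psmb7* turned from below 0 to 0.09 and 0.1. In that fit 12 proteasome genes were called again, while the genes called over all were 2401 against 3538 in the main fit. *Psmb9*, *Psmb8* and *Psmb10* were 3.05-fold, 1.88-fold and 1.69-fold lower, with adjusted p of 0.00158, 0.00337 and 0.0038. Leaving out KO-label vehicle liver 1, vehicle liver 2 or APAP liver 3 left 6 calls. Over all genes these fits called 2477, 1995 and 2071. Leaving out APAP liver 1 left 7 calls, where 2655 genes were called over all. The 3 immunosubunits were called in each of the 6 fits that left out 1 liver.

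A difference in response between the labels was not shown. The interaction of label and treatment, tested over all 12 livers, gave 0 of 47 proteasome genes (1 at an unadjusted p under 0.05, and 0 by DESeq2's Wald test). Of all 16509 genes 0% were called, and 848 had an unadjusted p under 0.05. The smallest p among the proteasome genes belonged to the immunosubunits. *Psmb9* had an interaction of -0.76 on the log2 scale (SE 0.34, adjusted p = 0.872), *Psmb8* of -0.61 (SE 0.28, adjusted p = 0.872) and *Psmb10* of -0.39 (SE 0.21, adjusted p = 0.872), where a negative value means a lower level after APAP relative to vehicle under the KO label than in WT. The 5 leukocyte markers had negative interactions too, all 5 at an unadjusted p under 0.05, with a median of -1.40.

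Between the labels within a treatment, no proteasome gene was called. In vehicle livers 0.0262% of 15262 genes were called in either direction. An unadjusted p under 0.05 was found for 1154 of the 15262 genes and for 2 of the 47 proteasome genes (0 called by DESeq2's Wald test). These were *Psmb8*, with 16.5 ± 4.73 CPM in WT and 26.6 ± 3.11 under the KO label (SD, n = 3; log2 0.69, SE 0.21, adjusted p = 0.575 from edgeR), and *Psmb9*, with 6.82 ± 2.1 and 11.6 ± 1.79 CPM (log2 0.77, SE 0.24, adjusted p = 0.581 from edgeR). In CPM every KO-label vehicle liver was above every WT vehicle liver for both genes. In TPM this held for *Psmb9*, whereas for *Psmb8* WT vehicle liver 3 (27.2) was above KO-label vehicle liver 3 (25.1). *Psma5* came next, with 42.3 ± 3.51 and 52.6 ± 12.3 CPM (log2 0.31, adjusted p = 0.738 from edgeR). The leukocyte markers were higher in the same livers, from 16.0 to 34.3 TPM against 12.7 to 14.4 TPM in sum, with 2 of 5 at an unadjusted p under 0.05, and of the 16 antigen presentation and interferon genes 13 had values above 0 (median 0.51) with 8 at an unadjusted p under 0.05 and 0 called. Their part was not tested.

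In APAP livers 0.0309% of 16174 genes were called, and 536 of the 16174 had an unadjusted p under 0.05. No proteasome gene had an unadjusted p under 0.05 or was called by DESeq2's Wald test. The smallest p among the proteasome genes belonged to *Psma8*, which is near silence (log2 -0.79, SE 0.35, adjusted p = 0.958 from edgeR), then to *Psme3* (0.28) and *Psmd11* (0.28). *Psmb8* was 13.2 ± 1.98 CPM in WT and 14.0 ± 1.33 CPM under the KO label, and *Psmb9* was 3.76 ± 0.505 and 3.79 ± 0.717 CPM (SD, n = 3).

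Some members carry limits of counting. Of the 48 genes, 12 overlap another annotated gene, among them *Psmb5*, *Psmb7*, *Psma3*, *Psmd1*, *Psmd13*, *Psme1*, *Psme4*, *Psmf1* and *Psmd10*, and the strand setting of the counting is not given in the sources used here. The copies *Psmb5-ps*, *Psmb6-ps2*, *Psmb7-ps2* and *Psme2b* held 0 to 21 counts per liver. The ratio of count to TPM was divided by the median ratio of the members in each liver. For *Psma3* it then varied 1.93-fold between livers, so its TPM and CPM differ in pattern. For the other members with reads it varied 1.04-fold to 1.22-fold.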

How the data were processed

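RNA was measured in 12 mouse livers, 3 in each of 4 groups set by the sample labels. Poly-A RNA was prepared with a stranded kit and sequenced as paired reads. The submitters' processing notes name FastQC 0.11.7, Trimmomatic 0.38, HISAT2 2.1.0, Bowtie2 2.3.4.1 and StringTie 2.1.3b with the mm10 build, and the counting settings are not given in the sources used here. The table the authors deposited gives, for each gene and liver, a raw count, an FPKM value and a TPM value, of which the authors scaled FPKM and TPM for length and depth.

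After filterByExpr on all genes, counts were TMM-scaled and fitted by edgeR 4.0.16 (quasi-likelihood, R 4.3.3), with Benjamini-Hochberg adjustment and a threshold of 0.05. Comparisons within a label or a treatment used the 6 livers compared. The comparison of APAP over both labels (label as a term) and the interaction used all 12. CPM compares a gene between livers, and TPM compares genes. Markers, companion genes and promoter motifs were read from lists, and 25 of 26 companion genes and 7 of 8 hepatocyte markers were found, Paaf1 and Tf being not analysed here. The values of 2 listed genes are not reported here, though counts and medians over their lists include them. Transcript lengths were taken from the GENCODE annotation. The pipeline was tested on simulated data.

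The members and lists were chosen with earlier results of these data known. Genes were named by a rule (catalytic subunits, immunosubunits, and in each role at most 3 with the smallest unadjusted p over all livers plus those whose sign differed from the median of their role; in the companion and antigen lists at most 5; between labels and in the interaction the 3 with the smallest p), and other genes were named after their values were seen. The labels number the livers 1 to 3 in each group and state no litter or batch. Correlations of deviations between same-numbered livers ran from -0.386 to 0.181, so the numbers were not taken to pair the livers. Alternatives were DESeq2 1.42.0 (size factors, or the Wald test), limma 3.58.1 on quantile-normalized log2(TPM + 1), no filter, at least 10 counts in every library, the replicate number as a block, all 12 livers in 1 fit, FPKM in place of TPM, and libraries left out. The setting without WT APAP liver 1 and KO-label vehicle liver 3 was chosen after seeing the data. The depth was 49737950 to 69566079 counts per liver, and the floor of 3 counts covers counting error only.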

Additional observations from a re-analysis of the deposited data

How the results depend on the processing

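The 3 immunosubunits were called lower over all livers and under the KO label in every alternative run for those comparisons. Over all livers 14 proteasome genes were called, and 24 (19 higher, 5 lower) with limma on log2(TPM + 1), which called 6 core genes. Of all genes, limma called 4441 and the main fit 4187. With 1 liver left out the count ran from 14 to 20, and it was 21 without WT APAP liver 1 and KO-label vehicle liver 3. Within WT it was 0, against 2 with DESeq2's Wald test, 3 with all 12 livers in 1 fit and 1 without WT APAP liver 1 and WT vehicle liver 2. Under the KO label it was 12, from 6 to 12 with 1 liver left out, 8 without a filter and 7 (4 higher, 3 lower) with the replicate number as a block. With the block it was 0 in WT and 14 over all livers. The livers share only a number, since 0 of 12 livers correlated best with livers of their own number. Between labels and for the interaction it was 0 in every alternative run. Over all genes, the 322 called within WT became 1413 with the Wald test, 1523 with all 12 livers in 1 fit and 62 with the block. Leaving out 1 liver gave 41 to 442 there, and under the KO label, where the main count was 3538, it gave 1995 to 3368. The cause of these moves was not tested.

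Some uncalled log2 fold changes near 0 changed sign. Over all livers, leaving out 1 liver gave *Psmb6* -0.013 to 0.166, *Psmb7* -0.081 to 0.193, *Psmd13* -0.055 to 0.023, *Psmf1* -0.005 to 0.133 and *Psmd10* -0.104 to 0.069. Without WT APAP liver 1 and WT vehicle liver 2, *Psmb7* was -0.071 and *Psmd10* -0.084. *Psmd10* was -0.068 with limma, -0.003 with the block and -0.068 without WT APAP liver 1 and KO-label vehicle liver 3. In WT, leaving out 1 liver gave *Psmb6* -0.003 to 0.38 and *Psmb7* -0.059 to 0.427, and *Psmb7* was -0.034 without WT APAP liver 1 and WT vehicle liver 2. Under the KO label the ranges were -0.077 to 0.09 for *Psmb6* and -0.197 to 0.1 for *Psmb7*, and limma gave 0.079 and 0.041. Of 1276 recomputed values in all, 1189 kept their direction and their side of the threshold, 36 newly passed it, 27 no longer did and 24 changed sign. FPKM in place of TPM cannot change a share within a liver, since the 2 differ there by a constant factor. Precision is limited by 3 livers per group and by whole-tissue RNA.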
